A study of Mus musculus with 4 samples.

Results

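Ion channel genes are described here in Neuro-2a (N2a) cells, a mouse neuroblastoma line, after knockdown of Arglu1 and a short glucocorticoid treatment. They were taken by symbol from the gene table, as every gene whose symbol begins with Kcn, every Scn gene whose symbol is Scn, a number and a or b, and every gene whose symbol begins with Cacna, Cacnb or Cacng. The rule found 133 of the 22667 genes in the table, with 132 different symbols because Kcnb2 is listed under a pair of identifiers. Of these, 57 had 75 or more reads summed over the libraries and were compared, against 12497 such genes in all. The sodium channel gene that the table calls Scn2a1 falls outside the rule and is not counted.

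The cells formed 4 groups, with 1 poly(A) RNA library in each, made from the pooled mRNA of 3 cultures. Cells of the siControl Veh and siControl Dex groups received a pool of non-targeting siRNAs. Cells of the siArglu1 Veh and siArglu1 Dex groups received an siRNA against Arglu1, for which the paper's methods name a single sequence. Transfection lasted 48 h in each case. The Veh groups were then given ethanol for 4 h, and the Dex groups 100 nM dexamethasone, a synthetic agonist of the glucocorticoid receptor. All the cells were transfected, and none of the libraries comes from untouched cells. ARGLU1 is a nuclear protein with reported roles in receptor coactivation and in splicing, and the design asks what its loss does to transcript levels and exon use without and with the hormone. Because a group is 1 pool, no test between 2 libraries was made, and fewer cells of a type cannot be told apart from less RNA per cell.

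Reads on genes numbered between 66074574 and 86541444 per library. Arglu1 itself fell to 26.4% of its siControl level with vehicle and to 22.5% with Dex. The channel genes together held between 0.0793% and 0.0899% of the reads. Among markers of the labelled cell type, all 14 neuroblastoma and sympathetic neuron genes were detected, with a summed level of 1712 and 1756 cRPKM (reads per kilobase of mappable sequence, scaled to library size) in the siControl libraries and of 2151 and 2158 cRPKM in the siArglu1 libraries. In both pairs 3 of these 14 were higher past the size rule given below and 2 were lower, and their part in the channel results was not tested. Genes that mark smooth muscle cells stood at a summed 6.48 and 6.16 cRPKM in the siControl libraries and at 81.6 and 73.6 cRPKM in the siArglu1 libraries; 3 of the 5 were higher past the size rule in both pairs, with Acta2 the most abundant, none was without reads, and their part in the channel results was not tested. The markers of fibroblasts, astrocytes and immune cells summed to under 1 cRPKM each in every library, and none of the genes in these lists was without reads in all 4.

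Voltage-gated channels open when the membrane depolarises: sodium channels carry the fast upstroke of the action potential, calcium channels couple it to secretion and gene expression, and potassium channels bring the membrane back. Each sodium or calcium channel has a large pore-forming alpha subunit, and smaller auxiliary subunits set how much of it reaches the surface and how it gates. Potassium channels are built from several subunits per pore, so that the mixture of genes expressed decides the current, and the inward rectifier and two-pore domain families hold the resting potential.

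Reads were found for part of the channel genes. Of the 133 genes, 76 had under 75 reads, with at most 62 reads over all libraries, and 25 of those are listed at 0 in every library. Among 18 Kv1 to Kv4 genes, 6 were compared and 10 are listed at 0, including Kcna1 and Kcna2, the classical axonal Kv genes. None of the 4 alpha2delta genes, which traffic calcium channels to the membrane, reached 75 reads, whereas 3 of 4 calcium channel beta genes and 4 of 8 gamma genes did. These low counts say that few reads were found, not that a channel was absent, and whether the genes listed at 0 could be counted at all in the authors' mappable positions is not known.

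The compared members spread from 0.0350 to 27.3 cRPKM in mean level over the 4 libraries, with a median of 1.25 cRPKM against 10.9 cRPKM for all genes compared. Kcnh2, which encodes the ERG potassium channel pore, stood highest, at 31.32 and 28.1 cRPKM in the siControl libraries (vehicle, then Dex) and at 23.71 and 26.02 cRPKM in the siArglu1 libraries. Values listed 4 at a time keep this order. Kcnh2 alone held 86.1% of the summed cRPKM of its family in siControl Veh. Of the 10 highest members 7 encode auxiliary subunits, namely Cacnb3, Cacng7, Cacng3, Scn3b, Kcnmb4, Cacng4 and Kcnab1. Cacng3, Cacng4 and Cacng7 are named as calcium channel gamma subunits, but are better known as partners of AMPA receptors. By mean level over the 4 libraries, the most abundant pore-forming genes of other families were Kcnn2 for the calcium-activated channels, Kcnj12 for the inward rectifiers, Kcnk3 for the two-pore domain channels, Scn8a for sodium channels and Cacna1b for calcium channels. In both siControl libraries, however, Kcnn3 (2.09 and 1.96 cRPKM) stood above Kcnn2 (1.36 and 1.24) and Scn9a (4.51 and 3.89 cRPKM) above Scn8a (3.46 and 3.59).

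**Figure D1:**
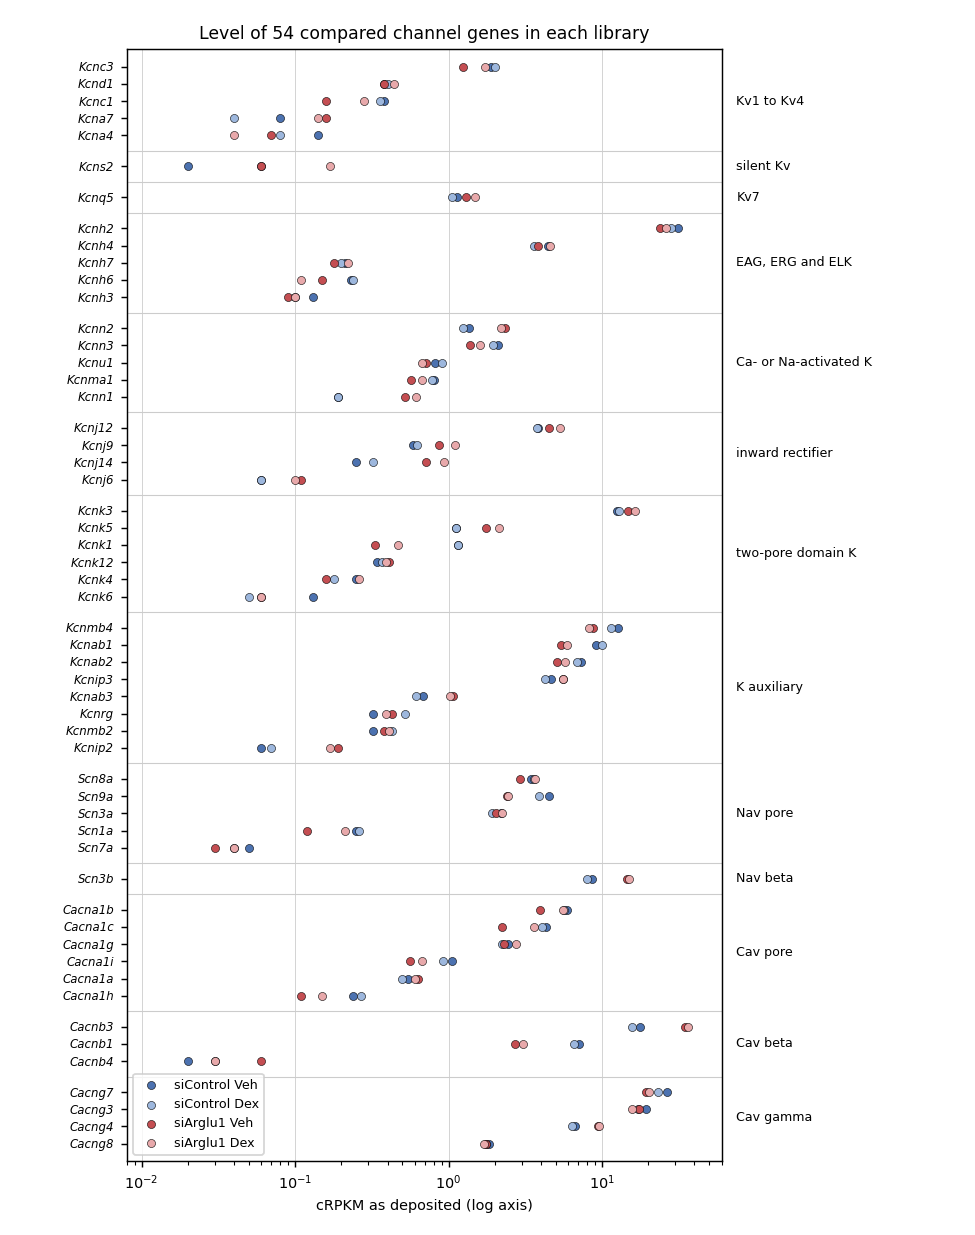
Level of 54 of the 57 compared channel genes in cRPKM as deposited (log axis), 1 point per library, ordered within families by mean level. Kcnh2 stands highest at a mean of 27.3 cRPKM, and the siArglu1 points lie right of the siControl points for Scn3b and Cacnb3 and left of them for Cacnb1 and Kcnk1.

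A gene was called higher or lower after knockdown when its log2 ratio passed 0.81 in either direction, and intervals are exact 95% intervals of the ratio of reads, which cover counting error only. With vehicle, 9 of the 57 members were higher in siArglu1 and 10 were lower, against 7.0% and 8.77% of all genes compared. With Dex, 11 were higher and 5 were lower, against 6.19% and 5.93% of all genes. Both pairs, which share no library, placed 7 members higher (among them Kcnn1, Kcns2, Kcnj14, Kcnip2, Kcna7 and Cacnb3; 4.83% of all genes) and 4 lower (Kcnk1, Cacnb1, Kcna4 and Cacna1h; 5.07% of all genes). Shares of the members were thus 12.3% and 7.02%. The median log2 ratio of the members was -0.10 with vehicle and 0.12 with Dex, and that of all genes was 0.00 in both. Across the 57 members the ratios of the pairs had a Pearson correlation of 0.863, against 0.899 across all genes, as a description; 46 members had the same sign in both.

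An additive edgeR model took the knockdown as 1 effect over both treatments, with 1 residual degree of freedom over the 4 libraries. Of the 57 members, 19 rose and 19 fell at an adjusted p under 0.05, against 30.8% and 30.9% of all genes, so that the members were called about as often as any other gene. These are 33.3% of the members in each direction. All 38 had the same sign in both pairs, which a model that fits 1 effect to both pairs favours. The model assumes the same knockdown effect with vehicle and with Dex. Its p-values rest on how far these knockdown ratios differ, with information shared across genes, and not on the spread between separate cultures. Exons of Cacna1h, Cacnb1, Kcnab1, Kcnab2, Kcnj6, Kcnj9, Kcnk1, Kcnk3, Kcnmb4, Kcnn1, Kcnn2 and Scn9a share between 80 and 693 nt with another annotated gene, on the opposite strand in all but Kcnab2, and because the library kit does not mark strand the reads on these stretches cannot be told apart.

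**Figure D2:**
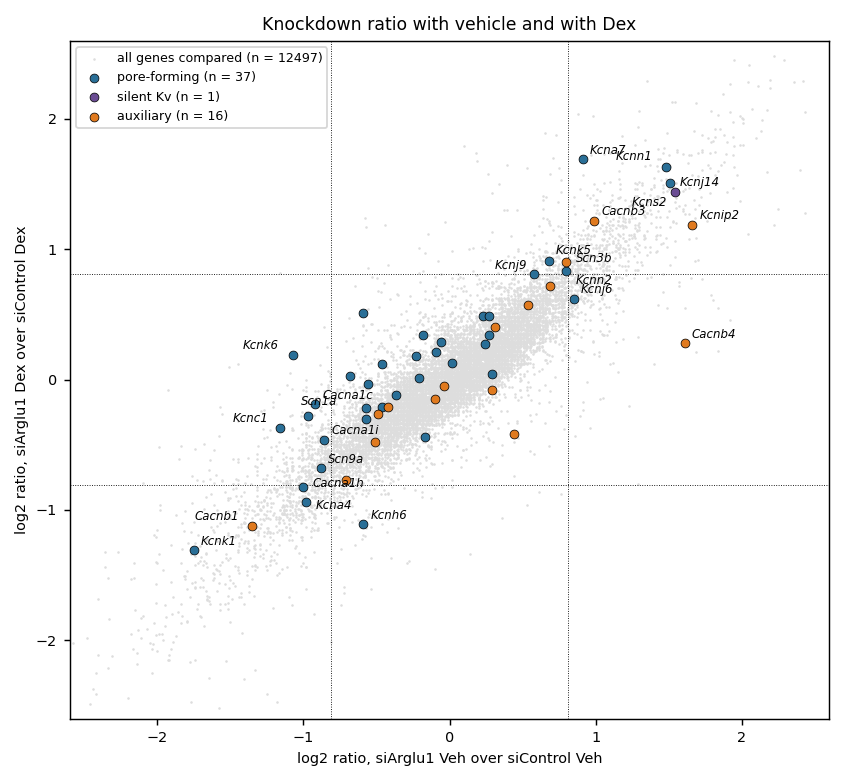
Log2 ratio of siArglu1 over siControl with vehicle (x axis) and with Dex (y axis) for all genes compared (grey) and 54 of the 57 channel genes by role. Dotted lines mark 0.81 in either direction, and names are given for members drawn past a line in at least 1 pair; Cacnb3 lies at 0.99 and 1.22 and Kcnk1 at -1.75 and -1.31.

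Scn3b, which encodes an auxiliary beta subunit of sodium channels, had 2522, 2519, 4314 and 5763 reads. Its log2 ratios were 0.80 (0.73 to 0.87) and 0.90 (0.84 to 0.97), just below and just above 0.81, and it rose in the additive model (edgeR adjusted p = 1.4e-20).

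The beta subunits of calcium channels, cytoplasmic proteins that bind the pore-forming subunit and promote its surface expression, moved in opposite directions. Cacnb3 had 3243 and 3076 reads in the siControl libraries and 6358 and 8732 reads in the siArglu1 libraries. Its log2 ratio was 0.99 (0.93 to 1.06) with vehicle and 1.22 (1.16 to 1.28) with Dex, and it rose in the additive model (edgeR adjusted p = 2.5e-34). Cacnb1 went the other way, with 1557 and 1565 reads in the siControl libraries and 602 and 880 in the siArglu1 libraries. Its log2 ratio was -1.35 (-1.49 to -1.21) with vehicle and -1.12 (-1.24 to -1.0) with Dex (edgeR adjusted p = 4.1e-31). Cacnb1 therefore fell while Cacnb3 rose, and for both genes the siControl and siArglu1 reads did not overlap.

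On the cRPKM scale, which allows genes to be compared, Cacnb3 made up 71.5% of the beta subunit transcripts in siControl Veh and 70.3% in siControl Dex, and 92.6% and 92.2% in the siArglu1 libraries. Cacnb1 made up 28.4% and 29.6% before and 7.25% and 7.70% after. Cacnb4, which was chosen after its values were seen, had 11, 16, 35 and 24 reads. It was past the threshold with vehicle at 1.61 (0.68 to 2.82) but stood at 0.28 (-0.68 to 1.31) with Dex.

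Among the auxiliary subunits of potassium channels, 3 of 8 rose and 3 fell in the additive model, near the 30.8% and 30.9% of all genes. Kcnip2, a calcium-binding partner of Kv4 pores, had 9, 12, 30 and 35 reads, so that its log2 ratios of 1.66 and 1.19 carried wide intervals (0.65 to 3.02 and 0.28 to 2.34). Kcnab1, a cytoplasmic beta subunit of Kv1 channels and far more abundant, had 1921, 2265, 1152 and 1624 reads and log2 ratios of -0.71 and -0.77, short of 0.81 in both pairs; it fell in the additive model (edgeR adjusted p = 1.3e-13). Kcnmb4, the neuronal beta subunit of the large-conductance calcium-activated channel, had log2 ratios of -0.51 and -0.48.

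The gamma subunit genes had smaller ratios. Cacng4 rose, with log2 ratios of 0.54 and 0.57 (edgeR adjusted p = 1.7e-08), and Cacng7 fell, with -0.42 and -0.21 (edgeR adjusted p = 9.1e-04). Cacng3 had ratios of -0.10 and -0.15 and did not pass (edgeR adjusted p = 0.24).

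**Figure D3:**
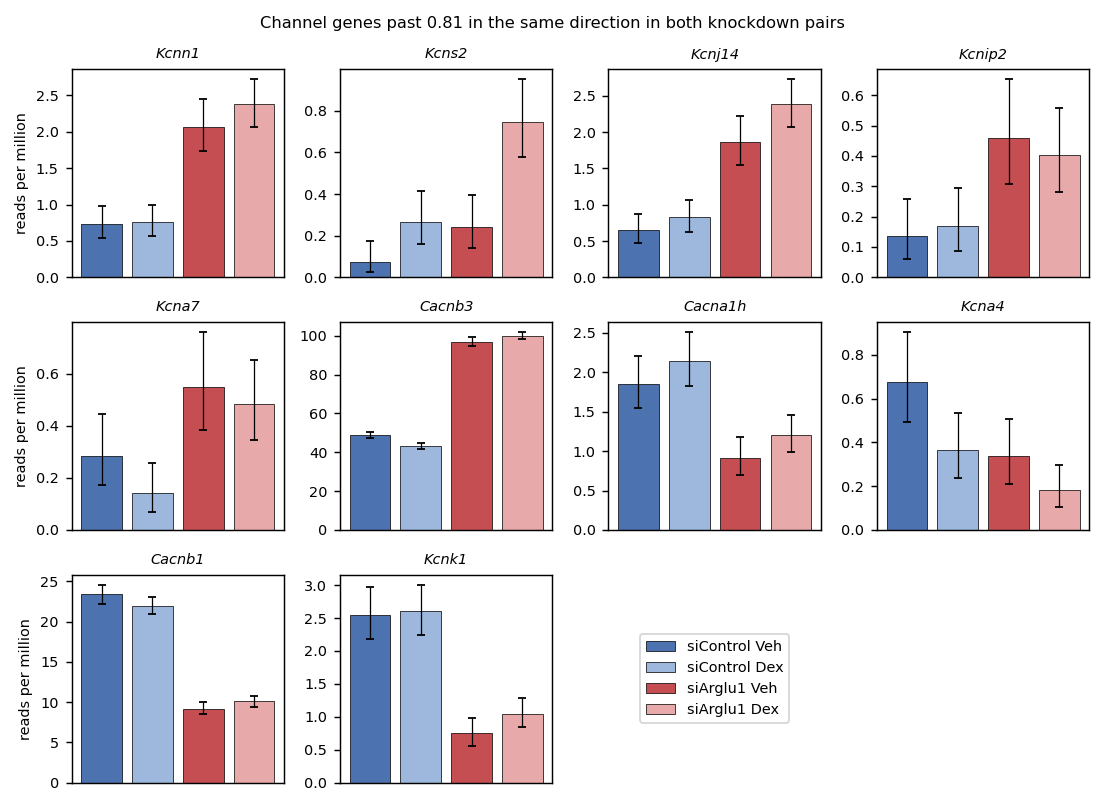
CPM (reads scaled to the effective library size) in each library for 10 of the 11 channel genes past 0.81 in the same direction in both knockdown pairs. Bars start at 0 and error bars are exact 95% Poisson intervals of 1 library, covering counting error only; the intervals of Cacnb3, Cacnb1 and Kcnk1 in siArglu1 do not touch those in siControl.

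The largest ratios among the potassium channel pores stood on low read counts. Kcnn1, which encodes a small-conductance calcium-activated channel, had 49, 54, 136 and 207 reads. The log2 ratios of Kcnn1 were 1.48 (1.01 to 2.0) with vehicle and 1.63 (1.21 to 2.11) with Dex, and it rose in the additive model (edgeR adjusted p = 3.5e-15). Its relative Kcnn2 also rose, at 0.80 and 0.83 (edgeR adjusted p = 3.5e-11), whereas Kcnn3 fell, at -0.57 and -0.30 (edgeR adjusted p = 0.0014). In cRPKM the leading small-conductance gene was therefore Kcnn3 in the siControl libraries, with 57.3% and 57.1% of the summed level of Kcnn1 to Kcnn4, and Kcnn2 in the siArglu1 libraries, with 53.6% and 49.4%.

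All 4 inward rectifier genes compared had ratios above 0 in both pairs, and 3 of them rose in the additive model, against 30.8% of all genes. Among all 12497 genes compared, 6286 had ratios above 0 with vehicle and 6288 with Dex. Kcnj14 had 43, 59, 122 and 208 reads and a log2 ratio of 1.51 in both pairs (intervals 1.01 to 2.06 and 1.11 to 1.97; edgeR adjusted p = 5.2e-14). Kcnj9, a subunit of G-protein-gated channels, had 0.58 and 0.81, and Kcnj12, the most abundant of the family, had 0.27 and 0.49. Kcnj6, another G-protein-gated subunit, had 12, 14, 22 and 27 reads, and its intervals spanned 0 (-0.18 to 2.05 and -0.32 to 1.70).

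The two-pore domain channels, which carry leak currents, were split. Kcnk1 had 170 and 186 reads in siControl and 49 and 91 reads in siArglu1, in the order vehicle and Dex. Its log2 ratio of -1.75 (-2.26 to -1.31) with vehicle was the lowest of all members, and with Dex it was -1.31 (-1.70 to -0.95); Kcnk1 fell in the additive model (edgeR adjusted p = 5.1e-16). Kcnk5 rose, with 0.68 and 0.91 (edgeR adjusted p = 8.5e-10), and so did the abundant acid-sensitive Kcnk3, with 0.27 and 0.34 (edgeR adjusted p = 0.0011).

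Of the 6 voltage-gated Kv1 to Kv4 pores, 4 fell and 1 rose in the additive model, against 30.9% and 30.8% of all genes. By the size rule 2 were lower and 1 higher with vehicle, and 1 was lower and 1 higher with Dex. Kcna4, which carries a rapidly inactivating current, had 45, 26, 22 and 16 reads and log2 ratios of -0.98 and -0.94, and Kcna7 had 19, 10, 36 and 42 reads and ratios of 0.91 and 1.69. With so few reads the interval of Kcna4 ran from -1.82 to -0.24 with vehicle, and that of Kcna7 from 0.10 to 1.83. Kcnc1, a fast delayed rectifier, was lower with vehicle at -1.16 (-1.87 to -0.54) and stood at -0.37 (-0.89 to 0.14) with Dex.

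Kcnh2, the most abundant member, fell, with log2 ratios of -0.37 (-0.41 to -0.32) and -0.12 (-0.16 to -0.08) (edgeR adjusted p = 0.0091). Kcnh6, of the same ERG group but present at 51, 56, 33 and 31 reads, had ratios of -0.59 and -1.11. The silent subunit Kcns2, which forms channels only with other Kv pores, is described with the hormone below.

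Most of the pore-forming sodium and calcium channel genes had ratios below 0 with vehicle, and fewer did with Dex. Of the 5 sodium channel pore genes compared, 5 had ratios below 0 with vehicle and 2 with Dex; of the 6 calcium channel pore genes, 5 and 4 did, and Cacna1a, the exception with vehicle, was at 0.24 and 0.27. Lower past 0.81 with vehicle were 2 of the sodium and 3 of the calcium channel genes, against 8.77% of all genes. Ratios above 0 were held by 6286 of all 12497 genes with vehicle and by 6288 with Dex. The vehicle ratio of Scn7a, chosen after its values were seen, was -0.68 (-1.74 to 0.27) on 25, 20, 15 and 25 reads. Scn2a1, outside the rule, had ratios of -0.04 and -0.03. Median log2 ratios were -0.68 (that of Scn7a) and 0.01 for the sodium channels and -0.71 and -0.11 for the calcium channels. These are among the longest transcripts in the table, with median mappable lengths of 7320 and 7908 nt against 2708 nt for all genes, and over all genes the ratio went down with length (Spearman rho = -0.398 with vehicle and -0.229 with Dex, across genes that share the libraries).

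Scn9a, a sodium channel of sensory and sympathetic neurons, had 2626, 2445, 1404 and 1863 reads. Its log2 ratio was -0.88 (-0.98 to -0.79) with vehicle and -0.68 (-0.77 to -0.59) with Dex, and it fell in the additive model (edgeR adjusted p = 1.3e-15). Of the summed cRPKM of the sodium channel pore genes taken by the rule, Scn9a held 42.8% in siControl Veh and 31.8% in siArglu1 Veh. Scn8a held 32.8% and 38.8%. Scn2a1, left out of this sum, stood at 1.51 cRPKM in siControl Veh and 1.43 cRPKM in siArglu1 Veh. Scn8a had ratios of -0.21 and 0.01, and Scn1a, with 114, 127, 57 and 128 reads, had -0.97 and -0.28.

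Cacna1c, the L-type calcium channel pore, had 1827, 1855, 950 and 1993 reads, or 27.4, 26.0, 14.5 and 22.9 CPM. It was lowest in siArglu1 Veh, and siArglu1 Dex was also below siControl Dex. Its ratios were -0.92 (-1.04 to -0.81) with vehicle and -0.19 (-0.28 to -0.09) with Dex. The N-type gene Cacna1b was also lowest in siArglu1 Veh, with 2707, 2779, 1812 and 3327 reads and ratios of -0.56 and -0.03. Among the T-type genes, Cacna1h (123, 153, 60 and 105 reads) was at -1.0 and -0.82, Cacna1i (666, 628, 360 and 556 reads) at -0.86 and -0.46, and Cacna1g, which was not chosen by its size of change, at -0.06 and 0.29. Cacna1c, Cacna1b, Cacna1h and Cacna1i fell in the additive model, with edgeR adjusted p-values from 3.3e-08 for Cacna1i to 0.0032 for Cacna1b. That model takes the knockdown effect as the same in both treatments, whereas the ratios of Cacna1c and Cacna1b differed between vehicle and Dex.

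When the trend of the ratio with length over all genes was removed, the median of the sodium channel pores was -0.27 with vehicle and 0.24 with Dex. Both are the values of Scn7a, which had few reads. The median of the calcium channel pores was -0.25 and 0.08. None of these 11 genes then passed 0.81 in either pair. The members called with vehicle became 11 higher and 4 lower in place of 9 and 10, and those called with Dex 11 and 4 in place of 11 and 5. With the same trend removed, 5.99% of all genes were higher and 7.10% lower with vehicle, and 6.0% and 5.60% with Dex. Cacnb3 remained at 0.99 and 1.21, Cacnb1 at -1.27 and -1.09 and Kcnk1 at -1.84 and -1.37, whereas Scn9a was at -0.39 and -0.44 and Cacna1h at -0.56 and -0.60.

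**Figure D4:**
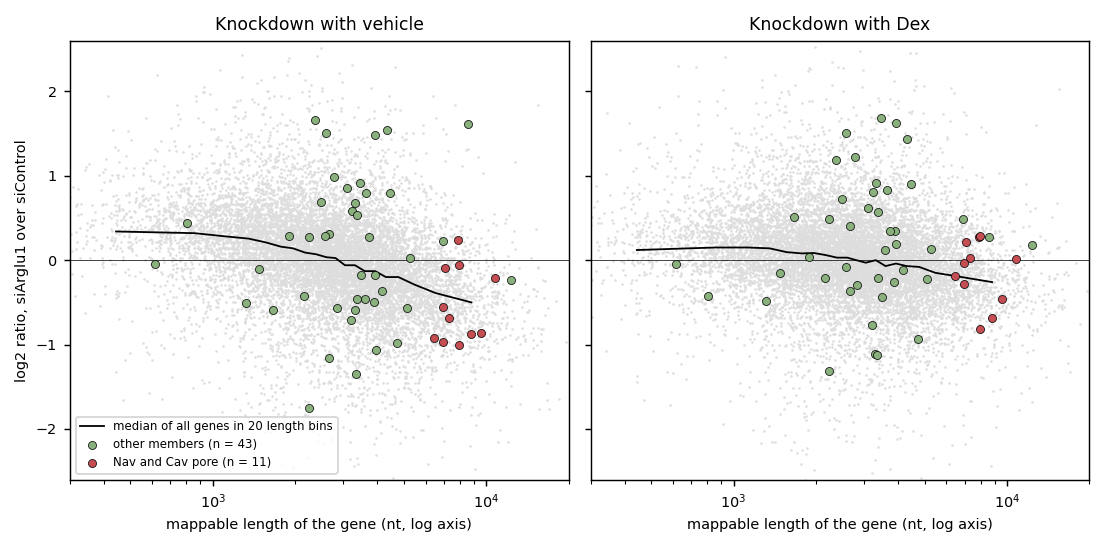
Log2 ratio of siArglu1 over siControl against mappable length (log axis) with vehicle and with Dex; grey points are all genes, the black line joins their medians in 20 length bins, and coloured points are 54 of the 57 channel genes. The sodium and calcium channel pores, with median lengths of 7320 and 7908 nt, lie at the long end, where the median of all genes is also below 0.

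Few channel genes passed the size rule for Dex within 4 h. In siControl cells 1 member was more than 1 log2 unit higher with Dex and 1 was lower, against 0.320% and 0.144% of all genes; in siArglu1 cells 1 was higher and none lower, against 0.328% and 0.0640%. The higher gene was Kcns2 in both cases, with 5 reads in siControl Veh and 19 with Dex, and with 16 reads in siArglu1 Veh and 65 with Dex. Both Dex libraries were above the vehicle library of the same siRNA, and siArglu1 Veh and siControl Dex were close to each other in CPM (0.244 and 0.266). The log2 ratios for Dex were 1.66 (0.36 to 3.60) in siControl and 1.56 (0.81 to 2.50) in siArglu1, and those for knockdown were 1.54 (0.19 to 3.5) with vehicle and 1.44 (0.73 to 2.31) with Dex.

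The lower gene was Kcnk6, a two-pore domain channel, with 33, 15, 15 and 21 reads and a log2 ratio for Dex of -1.19 (-2.22 to -0.32) in siControl and 0.07 (-0.95 to 1.13) in siArglu1, with intervals that overlap. Across the members the Dex ratios in siControl and siArglu1 had the same sign in 27 of 57, against 45.7% of all genes. Over all genes the ratio for Dex followed length in siArglu1 (Spearman rho = 0.543) more than in siControl (rho = -0.163), and for the members the values were 0.336 and -0.0635.

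Other genes of membrane excitability were listed for comparison. Of 16 channel partners compared, 4 rose and 11 fell in the additive model, which called 30.8% of all genes higher and 30.9% lower; Ank3, the ankyrin that anchors sodium and Kv7 channels at the axon initial segment, fell from 7065 to 1978 reads with vehicle and from 7652 to 3246 with Dex (log2 ratios -1.81 and -1.53), and Fgf14, which binds sodium channels, was at -1.23 and -1.42. Of 21 other cation channels, 5 rose and 9 fell, with Trpv2 at 1.07 and 1.15 and Ryr2, a calcium release channel, at -1.46 and -1.02. Of 13 pumps and exchangers, 3 rose and 7 fell, and the chloride transporters Slc12a2 and Slc12a5 were at -1.27 and -1.17 and at -1.12 and -0.82. Median log2 ratios of the lists were -0.57, -0.34 and -0.25 with vehicle and -0.52, -0.02 and -0.19 with Dex, beside 0.00 for all genes. With the length trend removed, Ank3 was at -1.30 and -1.27, Fgf14 at -1.13 and -1.38 and Slc12a2 at -0.91 and -0.99, whereas Ryr2 (-0.72 and -0.64) and Slc12a5 (-0.80 and -0.66) no longer passed 0.81.

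Alternative splicing of the channel transcripts was measured as percent spliced in (PSI), the share of transcripts that use an exon or splice site. In 21 of the genes, 109 events could be compared: 69 cassette exons, 4 microexons, 21 alternative acceptor (3′ splice site) events and 15 alternative donor (5′ splice site) events. Of the cassette exons and microexons, 35 were within 5 PSI of 0 or of 100 in all libraries. A difference of 15 PSI was passed by 6 events for knockdown with vehicle, or 5.5%, against 1.96% of all events, and by 2 with Dex, against 1.52%. None passed it in the same direction in both pairs, against 0.540% of all events; at 10 PSI, 6 of the 109 did, or 5.5%, against 1.41% of all events. Each library gives 1 PSI value, and the coverage scores of the authors, from SOK (highest) through OK, LOW and VLOW to N, are the only measure of precision for cassette exons. Of the 6 events past 15 PSI with vehicle, only a 92-nt exon of Scn8a, described below, scored OK or higher in every library. Compared members had a median level of 1.25 cRPKM against 10.9 cRPKM for all genes. Events were not matched for coverage, and its part in these shares was not tested. Coordinates are those deposited. Exon sequences were read from GENCODE M21 transcripts of the same gene in which the exon and both adjoining introns had the deposited lengths. For the upstream copy of the exon pair and for the exon start printed below, 1 adjoining intron was matched.

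Cacna1b, the N-type calcium channel pore, held several events. A coding microexon of 6 nt at chr2:24498373-24498378 (mm9, minus strand) was included at 93.19 and 93.14 PSI in the siControl libraries and at 82.84 and 83.46 PSI in the siArglu1 libraries, all with OK coverage. The difference of -10.35 with vehicle and -9.68 with Dex stayed below 15 PSI, and the groups did not overlap. The microexon is printed in capitals between 27 bases of each neighbouring exon, because its 6 bases are the whole of the change:
Cacna1b microexon: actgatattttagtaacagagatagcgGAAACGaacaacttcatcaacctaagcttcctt

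A tandem pair of 97-nt exons of Cacna1b, of which the upstream copy is known from pain-sensing neurons, had higher PSI at the downstream copy. The upstream copy (chr2:24482343-24482439) had PSI values of 3.03, 1.15, 0 and 0, and the downstream copy (chr2:24480758-24480854) had 89.47, 83.91, 73.91 and 80.0. The deposited event of the upstream copy has the downstream copy as its next exon. It therefore need not count use of the upstream copy in place of the downstream copy. The difference for knockdown of the downstream copy was -15.56 with vehicle and -3.91 with Dex. Both are shown with the 40 differing bases in capitals, since the copies are of equal length and only 58.8% identical:
Cacna1b upstream copy: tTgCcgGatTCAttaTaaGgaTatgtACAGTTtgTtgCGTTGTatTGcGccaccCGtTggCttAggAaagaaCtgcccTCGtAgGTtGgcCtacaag
Cacna1b downstream copy: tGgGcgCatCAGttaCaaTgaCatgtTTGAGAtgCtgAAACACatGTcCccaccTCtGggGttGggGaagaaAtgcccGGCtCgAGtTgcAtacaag

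In 2 further exons of Cacna1b the acceptor sites lie 3 nt apart. For the exon at chr2:24573550-24573642, the site giving the longer exon took 27 of 38 and 14 of 30 junction reads in the siControl libraries and 11 of 13 and 14 of 23 in the siArglu1 libraries. PSI was 71.05 (exact binomial interval 54.1 to 84.6), 46.67 (28.3 to 65.7), 84.62 (54.6 to 98.1) and 60.87 (38.5 to 80.3), so that both vehicle libraries were above both Dex libraries while the intervals overlapped. It was the only channel event past 15 PSI for Dex in siControl, at -24.38, against 0.719% of all events, and stood at -23.75 in siArglu1. The start of the longer exon is printed with the optional 3 bases in capitals, because like any acceptor they end in AG:
Cacna1b exon start: CAGtgttgaagagagctgccaccaagaaga

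The second such exon of Cacna1b, at chr2:24535020-24535163, had 75.55 and 77.27 PSI for the longer form in the siControl libraries and 90.79 and 91.27 PSI in the siArglu1 libraries. The knockdown differences were 15.24 and 14.00, on between 22 and 37 junction reads per library, with LOW coverage in each.

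Scn8a, the sodium channel pore of nodes and initial segments, has a tandem pair of 92-nt coding exons that are used at different stages of development. The downstream copy (chr15:100790034-100790125, mm9, plus strand) had PSI values of 19.44 and 12.24 in siControl and 3.7 and 9.47 in siArglu1, with differences of -15.74 and -2.77. Both siArglu1 values were below both siControl values, and the difference passed 15 PSI with vehicle alone. The upstream copy (chr15:100789771-100789862) had 26.57, 23.51, 31.13 and 30.36 PSI, with knockdown differences of 4.56 and 6.85. Its deposited event has the downstream copy as the next exon, so a switch between the copies cannot be read from these values.

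A donor site of Scn8a that adds 30 nt (exon at chr15:100814120-100814506) took 2 of 26, 7 of 31, 4 of 15 and 8 of 24 junction reads. PSI was 7.69 (0.946 to 25.1), 22.58 (9.59 to 41.1), 26.67 (7.79 to 55.1) and 33.33 (15.6 to 55.3), and the intervals overlapped throughout, although the difference with vehicle was 18.98.

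In siArglu1 cells, 3 channel events were past 15 PSI for Dex, against 0.948% of all events, and all 3 were lower with Dex. They were the Cacna1b acceptor site above, an 84-nt exon of Cacna1c and a 42-nt exon of Kcnab2. The Cacna1c exon (chr6:118588445-118588528) had 56.07, 63.58, 66.23 and 39.12 PSI, with a coverage score of N in siArglu1 Veh, and its knockdown difference was 10.16 with vehicle and -24.46 with Dex. The Kcnab2 exon (chr4:151808891-151808932), which was chosen after its values were seen, had 77.05, 73.49, 77.27 and 62.11 PSI, and siArglu1 Dex alone was low. Another exon of Cacna1c, of 78 nt, differed by 15.62 with vehicle and by -0.85 with Dex, and a 33-nt exon by -11.71 and -14.17. For the 78-nt exon the siArglu1 Veh library scored VLOW and the rest LOW. The 33-nt exon scored OK in both siControl libraries. Its siArglu1 Veh value had the lowest score, N, and its siArglu1 Dex value scored LOW, so both of its differences rest on weakly covered siArglu1 values.

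**Figure D5:**
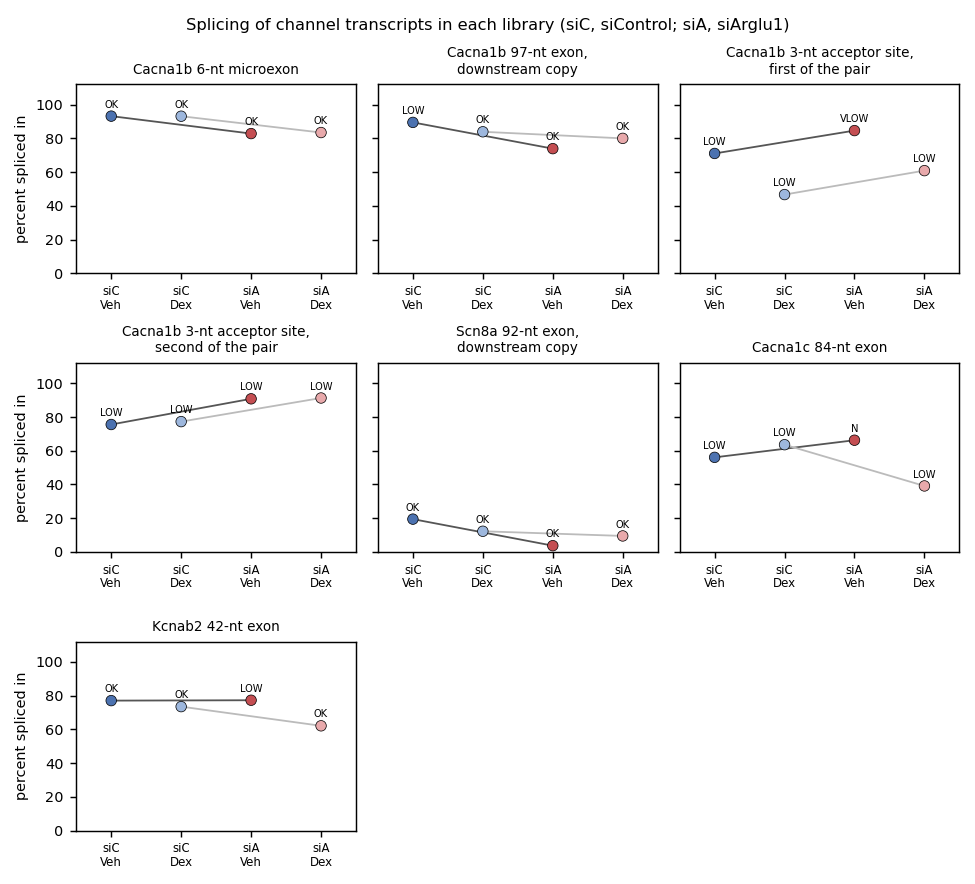
Percent spliced in (0 to 100) of 7 events of channel genes in each library, with the authors' coverage score above each point; lines join siControl and siArglu1 libraries of the same treatment. The Cacna1b microexon is lower in siArglu1 in both pairs, at 82.84 and 83.46 PSI against 93.19 and 93.14, and the Kcnab2 exon is low in siArglu1 Dex alone.

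The last event past 15 PSI for knockdown with vehicle was a 419-nt exon of Kcnn2, with 80.0, 93.75, 96.3 and 97.14 PSI. Its differences were 16.30 with vehicle and 3.39 with Dex, with coverage of VLOW in siControl Veh and LOW in siControl Dex. A 71-nt exon of Cacna1g, chosen after its values were seen, was at 100 PSI in both siControl libraries. It was at 89.03 and 87.08 PSI in the siArglu1 libraries, with coverage of LOW in siControl Veh and VLOW in siArglu1 Veh.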

How the data were processed

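The authors pooled the mRNA of 3 cultures per group and sequenced 1 poly(A) library of each; per the labels, the kit was TruSeq V2, and the submitters' processing notes name Bowtie and the mm9 build, without roles. Deposited values were whole-number read counts per gene, cRPKM (RPKM over mappable positions) to 2 decimals, and, for each splicing event, PSI in percent with a coverage score in words. Other columns hold 2 of the authors' ratios between treatments and were not used. The authors obtained PSI with vast-tools and tested expression with edgeR; versions and settings of these were not given in the sources used here.

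Channel genes were taken by symbol, and the members and gene lists were chosen with earlier results of these data known. Genes with 75 or more reads summed over the libraries were kept. Log2 ratios came from counts scaled by TMM in edgeR 4.0.16 (R 4.3.3) with a prior count of 1, with exact 95% intervals of the ratio of reads; the thresholds were 0.81 for knockdown, 1 for Dex and 15 PSI. Intervals cover counting error only. Knockdown was also tested over the 4 libraries by the quasi-likelihood test of edgeR with siRNA and treatment as additive terms and Benjamini-Hochberg adjustment over all 12497 genes. Mappable length was computed from counts and cRPKM, and the length trend was a lowess curve (span 0.3, 3 iterations) over all genes. An event was compared when every library had a PSI and at least 3 scored LOW or higher. Alternative sites of an event counted once. For alternative sites, PSI times the junction reads in the coverage field was within 0.01 of a whole number for 87.1% of values with equal read totals from 10 to 100, and intervals were given only for those.

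Named genes were up to 12 members with the largest rise and 12 with the largest fall in the smaller of both ratios (same sign, past 0.81 in at least 1 pair), the 10 with the highest level, the highest pore gene of each family, those past 1 for Dex, and those with an event past 15 PSI in both knockdown pairs or the largest past 15 PSI for Dex; some genes and exons that the rule names are not reported here. Alternatives were DESeq2 1.42.0 size factors and its Wald test, library totals, other minima, prior counts and thresholds, limma 3.58.1 on log2(cRPKM + 0.05), and stricter or no coverage limits. The scripts were tested on simulated data.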

Additional observations from a re-analysis of the deposited data

Results flagged for a closer look

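Results are listed here where the pairs of libraries that share no library moved in opposite directions, for genes with both intervals away from 0 and for events with at least 10 PSI in each direction. The differences themselves were not tested, since each group is 1 library. The gap between the knockdown pairs and the gap between the Dex pairs are the same contrast of the 4 libraries. A gene or exon listed for both therefore holds 1 observation, apart from rounding. The log2 ratio of Kcnh4, a relative of the ERG channels, was -0.18 for knockdown with vehicle and 0.34 with Dex, 0.52 apart, and -0.30 for Dex in siControl and 0.23 in siArglu1, 0.53 apart. For Dex in siControl and siArglu1, Kcnh2 was at -0.15 and 0.10 (0.25 apart), Cacna1g at -0.13 and 0.21 (0.34 apart) and Cacna1i at -0.18 and 0.22 (0.40 apart). With the length trend removed, the siArglu1 values of Kcnh2, Cacna1g and Cacna1i were 0.03, 0.03 and 0.00, and Kcnh4 stood at -0.28 and 0.17 for Dex and at -0.04 and 0.40 for knockdown, so that its ratio with vehicle was then near 0. Inclusion of the 84-nt exon of Cacna1c differed by 10.16 PSI for knockdown with vehicle and by -24.46 with Dex, a change of -34.62. That of a 75-nt exon of Cacna1c differed by 12.87 and -10.77 for knockdown and by 13.19 and -10.45 for Dex, the same change of -23.64. Both exons had a coverage score of N in at least 1 library. Kcnh4 and the 75-nt exon were chosen after their values were seen.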

How the results depend on the processing

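No paired analysis was possible because each group is 1 library and all carry the same replicate number, so that no pair of numbers exists; the additive model compared the siRNAs within each treatment. Of 948 recomputed ratios of named members, 916 stayed within the counting interval, 32 moved, all 32 on removing the length trend, and none past its threshold changed sign. For knockdown with vehicle, 19 members were past the threshold in either direction; with a minimum of 300 reads there were 11 of 42, with no minimum 42 of 108, and at thresholds of 1 and 1.5 there were 11 and 6. With Dex, the 16 became 37 with no minimum and 10 and 4 at those thresholds. For Dex in siControl, the 2 members became 0 on cRPKM and with 300 reads, 24 with no minimum, 4 at 0.81 and 1 at 1.5; in siArglu1, the 1 became 2 without the length trend, 0 with 300 reads, 17 with no minimum and 3 at 0.81. The additive model called 38 members, and the DESeq2 Wald test 25. Of the events, the 6 for knockdown with vehicle became 20 at 10 PSI, 0 at 25 PSI, 1 with OK coverage in all libraries and 44 with no coverage limit; the 2 with Dex became 11, 0, 1 and 30, and 1 without complex or unbalanced events. For Dex, the 1 in siControl became 9, 0, 0 and 30 and the 3 in siArglu1 became 8, 1, 0 and 39. The thresholds, minima and coverage limits change how many features are counted by construction; the cause of the other differences was not tested. Members under about 100 reads, and events below OK coverage, limit what can be read from single values.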
